A study of Mus musculus with 4 samples.

Results

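The 10 genes described here encode metalloproteases of 2 related families, the membrane-anchored Adam proteases (Adam8, Adam9, Adam10, Adam12, Adam15, Adam17 and Adam19) and the secreted Adamts proteases (Adamts1, Adamts4 and Adamts5). They were taken by gene symbol, as every probe set whose single symbol in the platform annotation was one of the 10, which gave 24 probe sets of 45037 on the array and 10 of 18193 genes with such a probe set. RNA came from basal mammary epithelial cells of virgin CD1 female mice aged 8 to 12 weeks, sorted as Lin-, CD24+, CD29hi to a purity stated as over 95% and grown as colonies in growth factor reduced Matrigel. The control group (2 arrays, control 1 and control 2) received vehicle, described as 1% CHAPS in PBS, and the treated group (2 arrays, Wnt3A 1 and Wnt3A 2) received 200 ng/ml purified Wnt3A, a secreted protein that activates canonical Wnt signalling. All cultures contained 50 ng/ml EGF, a ligand of the EGF receptor whose relatives are themselves Adam substrates, and colonies were harvested in passage 2 after 6 to 7 days. The labels do not tie the arrays to separate mice or colonies, so p-values measure only the spread between these arrays, which may be technical.

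Adam proteases sit in the cell membrane and cut other membrane proteins close to the surface, which releases their outer part, a step called shedding. Adam17 frees TNF and most ligands of the EGF receptor, among them the amphiregulin on which mammary duct growth depends, and Adam10 makes the first cut of activated Notch receptors and also cuts E-cadherin. Adamts proteases are secreted, carry thrombospondin repeats and cut matrix proteoglycans such as versican and aggrecan. Some but not all proteases of both families are held in check by tissue inhibitors of metalloproteases, above all Timp3.

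Expression is given on a log2 scale as the difference from each probe set's own median over the 4 arrays, because the deposited values had been centred in this way. They show which array is high or low for a probe set but carry no level, so no gene is compared with another by abundance, and the labelled cell type could not be checked as the presence or absence of markers. When the 2 groups do not overlap, the 2 middle arrays lie at equal distances on either side of 0 by construction. A level band (log2 8 or more, 4 to 8, or below 4) was read from the numerical step of the stored values and is approximate; 13 member probe sets were in the upper band, 10 in the middle and 1 in the lowest, and all 10 genes passed the filter on low values used for genes. Column medians lay between -0.02 and 0.02. Control 1 was lower than each of the other arrays by over 1 log2 unit for 178 probe sets, against 20 for control 2, 179 for Wnt3A 1 and 59 for Wnt3A 2. The counts for the array that was higher by as much were 86 for control 1, 153 for control 2, 61 for Wnt3A 1 and 267 for Wnt3A 2. Axin2, a standard target of canonical Wnt signalling, had gene values of -0.58 and -1.18 in the controls and 1.20 and 0.58 in the Wnt3A arrays, a difference of 1.76 ± 0.31 (SE), or of 0.82 when every Axin2 probe set was averaged.

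The comparison asked how transcripts of these proteases differed between Wnt3A-treated and vehicle-treated colonies. Adam8, both Adam12 probe sets and 1 probe set each of Adamts4 and Adam19 were measured higher with Wnt3A by 1.02 to 1.77 log2 units, and the other probe sets of Adamts4 and Adam19 by 0.59 and 0.26. Adamts5 was measured lower in all 4 of its probe sets, and Adam10 and Adam17 showed overlapping groups throughout. In bulk RNA, fewer cells of a type and less RNA per cell cannot be told apart. Of the 24 probe sets, 0 were lower with Wnt3A by at least 1 log2 unit, a share that was not counted over all probe sets. Higher by at least 1 log2 unit were 5 of the 24, where 0.881% of all probe sets were higher by that amount. In all 5, control 1 was the lowest array. Without control 1 the count was 0 of 24, where 0.77% of all probe sets were higher by that amount. It was 5 without control 2 (1.87% of all), 4 without Wnt3A 1 (2.10%) and 4 without Wnt3A 2 (0.90%). Both Wnt3A arrays lay above both controls for 9 of the 24 (17.4% of all probe sets) and below both for 3 (16.3% of all), and the groups overlapped for 12. No member passed the test: limma called 0 of 24 at a Benjamini-Hochberg adjusted p under 0.05 and 0% of all 45037, with a smallest adjusted p of 0.72 among members and 0.51 over all. At an unadjusted p under 0.05 there were 3 of 24, in Adam8, Adamts4 and Adam15, against 6.22% of all probe sets. The median difference was 0.10 over the 24 and 0.01 over all probe sets, and over the 24 it was 0.03 without Wnt3A 1 and 0.17 without Wnt3A 2. Probe sets of 1 gene share their transcript and are not independent, so these counts are descriptions, and with 2 arrays against 2 an exact two-sided permutation test cannot give a p below 0.33.

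**Figure D1:**
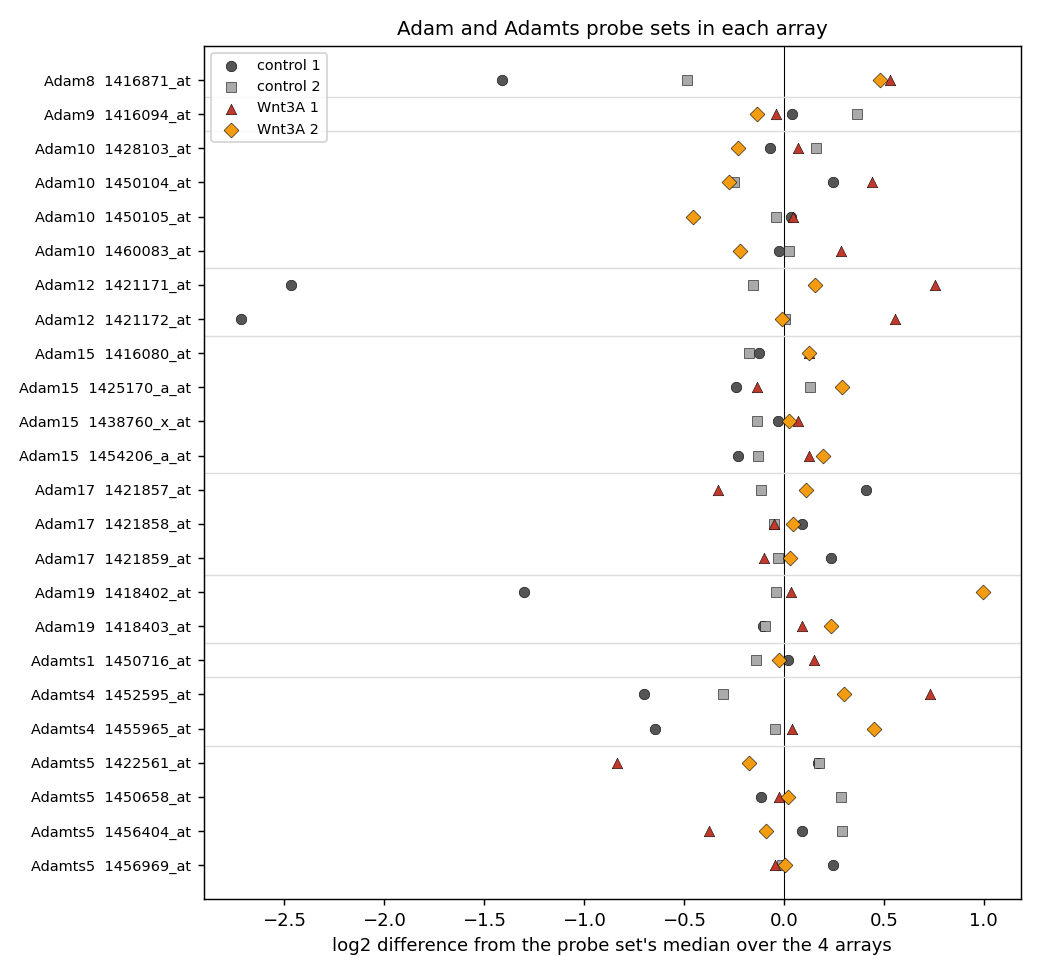
Values of the 24 probe sets in each array, as the log2 difference from the probe set's median over the 4 arrays (x axis), with 1 row per probe set grouped by gene and a symbol for each array. Control 1 lies far to the left for Adam12 (-2.47 and -2.71), Adam8 (-1.41) and 1 Adam19 probe set (-1.30), while Adam10, Adam15, Adam17 and Adamts1 stay within 0.5 log2 units of 0 in every array.

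Adam8 is a sheddase first described on myeloid cells. Its only probe set, 1416871_at in the upper level band, measured -1.41 (control 1), -0.48 (control 2), 0.53 (Wnt3A 1) and 0.48 (Wnt3A 2). The Wnt3A arrays lay 0.05 log2 units apart and the controls 0.93 apart, and the groups did not overlap. The difference was 1.45 ± 0.34 log2 units (SE), a 2.74-fold higher mean with Wnt3A, with an unadjusted p of 0.011 and an adjusted p of 0.73 in limma. Without control 1 it was 0.99, and without control 2 it was 1.91.

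Adam12, or meltrin alpha, is a protease of muscle and tumour stroma that cuts, among others, HB-EGF. Probe set 1421171_at was at -2.47 and -0.15 in the control arrays against 0.76 and 0.15 in the Wnt3A arrays. Probe set 1421172_at was at -2.71 and 0.01 in control 1 and 2, and 0.56 and -0.01 in Wnt3A 1 and 2. Both thus had control 1 far below the other arrays and Wnt3A 1 highest. The groups were separated in the first probe set and overlapped in the second, where control 2 lay just above Wnt3A 2. Control 1 was the only array whose stored value needed the finer numerical step in both probe sets, which would place it below log2 8 and the others at or above it. The differences were 1.77 ± 0.82 and 1.63 ± 0.96, with limma adjusted p of 0.86 and 0.91. They were 0.61 and 0.27 without control 1 and 2.92 and 2.99 without control 2, so the size of the Adam12 difference rested on that array.

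Adam19, or meltrin beta, processes neuregulin and acts in heart and nerve development. Its probe sets did not give the same size. Probe set 1418402_at, in the middle level band, was at -1.30 and -0.04 in the control arrays against 0.04 and 1.00 in the Wnt3A arrays, a difference of 1.19 ± 0.55 (limma adjusted p = 0.86) that was 0.56 without control 1 and 0.71 without Wnt3A 2. Probe set 1418403_at, in the upper band, was at -0.10 and -0.09 in control 1 and 2, and 0.09 and 0.24 in Wnt3A 1 and 2, a difference of 0.26 ± 0.13. The groups were separated in the same direction in both. Taken as a gene, Adam19 differed by 0.26 from its upper-band probe set and by 0.73 as the mean of both.

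Upstream sequences are shown for 4 sheddases, Adam8, whose probe set differed by over 1 log2 unit, Adam19, whose probe sets disagreed in size, and Adam10 and Adam17, whose groups overlapped. No window was used for Adam9, Adam12, Adamts4 or Adamts5, so Adam12 and Adamts4, which had larger differences than Adam19 as genes, are not shown. They are the 250 bases before a RefSeq transcription start (GRCm38.p6), 5′ to 3′ in the gene's direction, and windows were held for 6 of the 10 members. Capitals mark matches to the letters TGANTCA (the AP-1 consensus) or GGAATG (the TEAD consensus), searched on both strands with CTTTGAT (TCF/LEF). The windows lie at chr7:139992563-139992812 (minus strand) for Adam8, chr11:46055734-46055983 (plus strand, 1 of 3 listed Adam19 starts) for Adam19, chr9:70678732-70678981 (plus strand) for Adam10 and chr12:21373633-21373882 (minus strand) for Adam17.
Adam8: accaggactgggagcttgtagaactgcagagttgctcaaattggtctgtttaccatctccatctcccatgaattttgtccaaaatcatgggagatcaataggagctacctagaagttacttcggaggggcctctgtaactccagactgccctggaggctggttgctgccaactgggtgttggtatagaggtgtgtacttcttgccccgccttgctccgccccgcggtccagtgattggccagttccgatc
Adam19: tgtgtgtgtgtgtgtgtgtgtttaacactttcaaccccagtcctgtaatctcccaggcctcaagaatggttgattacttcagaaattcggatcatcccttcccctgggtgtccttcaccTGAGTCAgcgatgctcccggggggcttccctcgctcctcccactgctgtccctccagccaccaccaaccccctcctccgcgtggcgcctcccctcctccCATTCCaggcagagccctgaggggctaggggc
Adam10: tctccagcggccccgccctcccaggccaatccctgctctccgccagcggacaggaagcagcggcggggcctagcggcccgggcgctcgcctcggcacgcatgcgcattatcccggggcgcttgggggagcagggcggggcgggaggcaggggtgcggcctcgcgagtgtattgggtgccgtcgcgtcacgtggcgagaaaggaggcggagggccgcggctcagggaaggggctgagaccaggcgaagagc
Adam17: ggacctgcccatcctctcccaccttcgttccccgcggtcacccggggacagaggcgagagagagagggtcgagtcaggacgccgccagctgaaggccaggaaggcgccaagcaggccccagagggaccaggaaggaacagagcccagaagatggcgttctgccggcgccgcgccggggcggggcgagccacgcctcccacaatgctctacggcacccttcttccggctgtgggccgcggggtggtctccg
The Adam19 window holds 1 AP-1 match that ends 124 bases before the start and 1 TEAD match that ends 26 bases before it, on the opposite strand in letters (CATTCC). The other 7 windows of members, which include 2 further Adam19 starts, Adam15 and Adamts1, hold 0 matches to any of the 3 letter strings. Among all 32851 windows of this length, 6.75% hold the AP-1 letters, 12.6% the TEAD letters and 3.21% the TCF/LEF letters. GC content was 74% for Adam10 and 70.4% for Adam17, 65.6% for Adamts1, 62% for Adam15, 52.8% for Adam8 and 50% to 60% for the 3 Adam19 windows, with a median of 52.4% over all windows. A match describes letters only, and factor binding was not measured.

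Adam10 and Adam17, the main sheddases of Notch and of EGF receptor ligands, overlapped between groups in every probe set. The 4 Adam10 probe sets differed by -0.20 to 0.08 log2 units. In all 4, Wnt3A 2 was the lowest array (-0.23, -0.27, -0.45 and -0.22), whereas Wnt3A 1 was above 0 in each (0.07, 0.44, 0.05 and 0.29). The Wnt3A arrays thus lay further apart for Adam10 than the group means did. The 3 Adam17 probe sets differed by -0.26, -0.02 and -0.14, and control 1 was the highest array in each, at 0.41, 0.09 and 0.24. Taken as genes, the differences were -0.10 ± 0.19 for Adam10 and -0.08 ± 0.15 for Adam17, each smaller than its standard error.

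Adam9, or meltrin gamma, and Adam15, or metargidin, are broadly expressed epithelial members. Adam9 (1416094_at) was at 0.04 and 0.37 in the control arrays against -0.04 and -0.14 in the Wnt3A arrays, a difference of -0.29 ± 0.16 (limma adjusted p = 0.90). The groups did not overlap, but control 1 and Wnt3A 1 were 0.08 log2 units apart, and without control 2 the difference was -0.13. Adam15 was higher in the Wnt3A group mean in all 4 of its probe sets, by 0.13 to 0.34 log2 units, and 3 of the 4 had separated groups. The probe set with its largest difference, 1454206_a_at, was at -0.23 and -0.13 in control 1 and 2, and 0.13 and 0.20 in Wnt3A 1 and 2, a difference of 0.34 ± 0.12, a 1.27-fold higher mean, with an unadjusted p of 0.047 and an adjusted p of 0.80 in limma. Probe set 1416080_at was at -0.13 and -0.17 in the controls and at 0.13 in both Wnt3A arrays, and its difference stayed between 0.25 and 0.30 when any array was left out. The overlapping probe set, 1425170_a_at, was at -0.24 and 0.13 in the control arrays against -0.13 and 0.29 in the Wnt3A arrays. As a gene, Adam15 differed by 0.13 from its upper-band probe set and by 0.22 as the mean of all 4.

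The secreted members lay on both sides of 0. Adamts4, an aggrecanase, was higher with Wnt3A in both probe sets. Probe set 1452595_at was at -0.70 and -0.30 in control 1 and 2, and 0.73 and 0.30 in Wnt3A 1 and 2, a difference of 1.02 ± 0.23, a 2.02-fold higher mean, with an unadjusted p of 0.0097 and an adjusted p of 0.72 in limma, and of 0.82 without control 1 and 0.80 without Wnt3A 1. Probe set 1455965_at was at -0.64 and -0.04 in the control arrays against 0.04 and 0.45 in the Wnt3A arrays, a difference of 0.59 ± 0.27 that was 0.29 without control 1. The groups were separated in both, although the array that was highest differed, Wnt3A 1 in the first and Wnt3A 2 in the second.

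Adamts5, the other main aggrecanase, was lower in the Wnt3A group mean in all 4 probe sets, by 0.09 to 0.68 log2 units. Probe set 1422561_at was at 0.17 and 0.18 in control 1 and 2, and -0.83 and -0.17 in Wnt3A 1 and 2, a difference of -0.68 ± 0.25 (limma adjusted p = 0.80) that was -0.35 without Wnt3A 1 and -1.01 without Wnt3A 2. Probe set 1456404_at was at 0.09 and 0.29 in the control arrays against -0.37 and -0.09 in the Wnt3A arrays, a difference of -0.42 ± 0.17. The other 2 overlapped between groups, and 1 of them, 1456969_at, was the member probe set in the lowest level band. Adamts1, which cuts versican and is needed for ovulation, lies close to Adamts5 on chromosome 16 in the RefSeq table and had 1 probe set, at 0.02 and -0.14 in control 1 and 2, and 0.15 and -0.02 in Wnt3A 1 and 2. Its difference of 0.12 ± 0.14 came from overlapping groups, and whether it differs from that of Adamts5 was not tested.

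**Figure D2:**
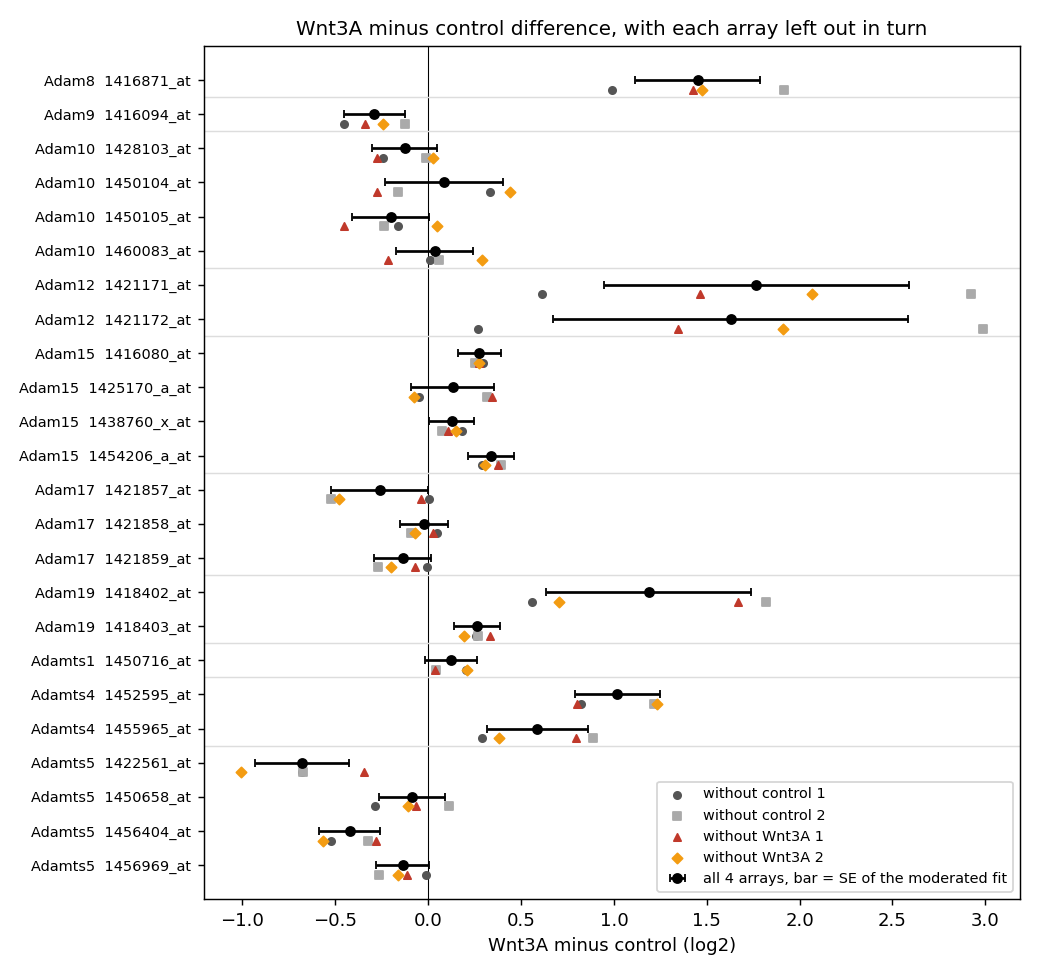
Difference between the Wnt3A and control group means in log2 units (x axis) for each of the 24 probe sets, with the standard error of the moderated fit as a bar and the value without each array as small symbols under it. The value without control 1 lies furthest left for both Adam12 probe sets (0.61 and 0.27) and for Adam8 (0.99). Every value of these 3 probe sets lies above 0, from 0.27 to 2.99.

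Control 1 was the lowest array in 10 of the 24 member probe sets, against 22.2% of all probe sets, and these were the probe sets of Adam8, Adam12, Adam19 and Adamts4 together with 2 of Adam15 and 1 of Adamts5. Contractile markers of basal cells were also low in that array, Cnn1 at -2.75, Myh11 at -1.67 and Acta2 at -1.66. The Acta2 value came from 1 of its 3 probe sets, and its difference of 0.75 was 0.10 as the mean of all 3. Of the other basal markers, Itgb1 (-0.77), Krt17 (-0.51) and Krt14 (-0.50) were below 0 there too. Krt5 (0.02), Itga6 (-0.05), Itgb4 (-0.08) and Trp63 (-0.08) lay near 0. Among the luminal keratins, Krt8 and Krt18 were at -0.51 and -0.41 and Krt19 at 0.02, while the luminal marker Foxa1 was at 0.68. These genes were singled out and grouped in this way after their values were seen. The 10 measured basal and myoepithelial genes had a median of -0.51 in control 1, against 0.02 in control 2, -0.17 in Wnt3A 1 and 0.18 in Wnt3A 2, and 3 of the 10 were separated higher (Itgb1, Itgb4 and Krt17) and 0 lower. Their median difference of 0.59 was 0.07 without control 1. Over all genes, 17.2% were separated higher and 18.5% lower with Wnt3A, which is the share to set beside each count of separated markers here. Squamous keratinocyte markers had 8 of 10 separated higher and 0 lower, with medians of -0.64, -0.39, 0.42 and 1.14 in the same order. Their differences ran from 0.59 (Lor) to 4.72 (Krt1), but without Wnt3A 2 these were 0.05 and 2.05, that of Flg was -0.41, and the median difference of 1.37 was 0.92. Luminal markers had 0 of 11 separated higher and 4 lower (Foxa1, Krt19, Pgr and Kit), with medians of 0.21, 0.08, 0.02 and -0.31. Their median difference of -0.30 was -1.07 without Wnt3A 1 and -0.11 without Wnt3A 2. Fibroblast markers had medians of -0.03, 0.10, 0.19 and -0.32 over 8 genes, and endothelial markers 0.11, -0.11, 0.12 and -0.18 over 6. Blood cell markers, given because Adam8 is best known from myeloid cells, had medians of 0.05, -0.14, 0.01 and -0.05 over 7 genes. In these last lists Dcn, Kdr, Tek and Cd68 were separated higher and Pdgfra and Hba-a1 lower. The part of these cell types in the protease values was not tested.

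Genes related to the 10 were compared at the gene level, where 0% of 16606 genes were called at an adjusted p under 0.05 in limma, 7.76% had an unadjusted p under 0.05, and 17.2% were separated higher and 18.5% lower with Wnt3A. The other Adam genes, many of them sperm proteins, lay near 0. Of 15 measured, 2 were separated higher and 3 lower, the differences ran from -0.27 (Adam22) to 0.22 (Adam4), and the median was -0.003. The other Adamts and Adamts-like genes had 4 of 16 separated higher and 3 lower, with a median of 0.12 that turned to -0.02 without control 1 and -0.04 without Wnt3A 1. Adamts3, which trims procollagen ends, was at 0.19 and 0.44 in the control arrays against -0.19 and -0.33 in the Wnt3A arrays, a difference of -0.58 ± 0.16. Adamts8 differed by 0.56 ± 0.18, Adamts15, a versican-cutting relative of Adamts1, by 0.56 ± 0.21, and Adamtsl5 by 0.39 ± 0.17. Leaving out the higher Wnt3A array gave 0.37, 0.30 and 0.24 for these 3.

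Inhibitors and maturation partners of the proteases were measured for 22 genes, of which 8 were separated higher and 1 lower, with a median of 0.14 that was 0.04 without control 2 and 0.28 without Wnt3A 2. Timp1 was at -0.55 and -0.17 in control 1 and 2, and 0.87 and 0.17 in Wnt3A 1 and 2, a difference of 0.87 ± 0.29 (limma adjusted p = 0.60) that was 0.53 without Wnt3A 1. Timp3, the inhibitor of Adam17 and of the aggrecanases, was at -0.79 and -0.11 in the control arrays against 0.24 and 0.13 in the Wnt3A arrays, a difference of 0.63 ± 0.26 that was 0.30 without control 1. Reck, a membrane-anchored inhibitor, went the other way at -0.76 ± 0.34, with control 2 at 0.96 and the other arrays between -0.43 and 0.06, and was -0.31 without control 2. Sh3pxd2a, which encodes the podosome adaptor Tks5 that binds Adam12, Adam15 and Adam19, differed by 0.59 ± 0.19, or by 0.39 as the mean of both its probe sets.

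Membrane proteins reported as shed by these proteases had 11 of 39 measured genes separated higher and 3 lower, with a median of 0.10 that was 0.03 without Wnt3A 1 and 0.23 without Wnt3A 2. Areg, which encodes amphiregulin, and Erbb4 were on the list but were not tested. The largest separated differences were those of Procr (2.75 ± 0.69), Epgn (1.65 ± 0.21), the transmembrane chemokine gene Cxcl16 (1.10 ± 0.23) and Ereg (1.06 ± 0.21), where Epgn and Ereg encode ligands of the EGF receptor. Ereg was at -0.39 and -0.42 in control 1 and 2, and 0.39 and 0.91 in Wnt3A 1 and 2, and its controls lay close together. Epgn was at -0.65 and -1.04 in the control arrays against 0.65 and 0.97 in the Wnt3A arrays, with control 2 lowest. Their sheddase Adam17 showed overlapping groups in each of its probe sets, as given above. Matrix substrates of the Adamts proteases had 4 of 14 separated higher and 1 lower, with a median of 0.16 that turned to -0.10 without Wnt3A 1 and was 0.06 without control 2. Bgn, which encodes the proteoglycan biglycan, was highest in control 2 and lowest in Wnt3A 2 (-2.27). Its difference of -2.07 ± 0.82 was -1.03 without Wnt3A 2 and -3.11 without Wnt3A 1, and -1.81 as the mean of its 3 probe sets. Fn1, fibronectin, was at -3.16 in control 1 and between -0.07 and 0.45 elsewhere, so its difference of 1.88 ± 1.03 was 0.33 without that array. As the mean of both its probe sets it was 1.38. Control 1 was the low array for Adam12 too. Nid1, a basement membrane protein cut by Adamts1, differed by 0.63 ± 0.23 (0.31 as the mean of its 3 probe sets), and the decorin gene Dcn by 0.21 ± 0.15.

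**Figure D3:**
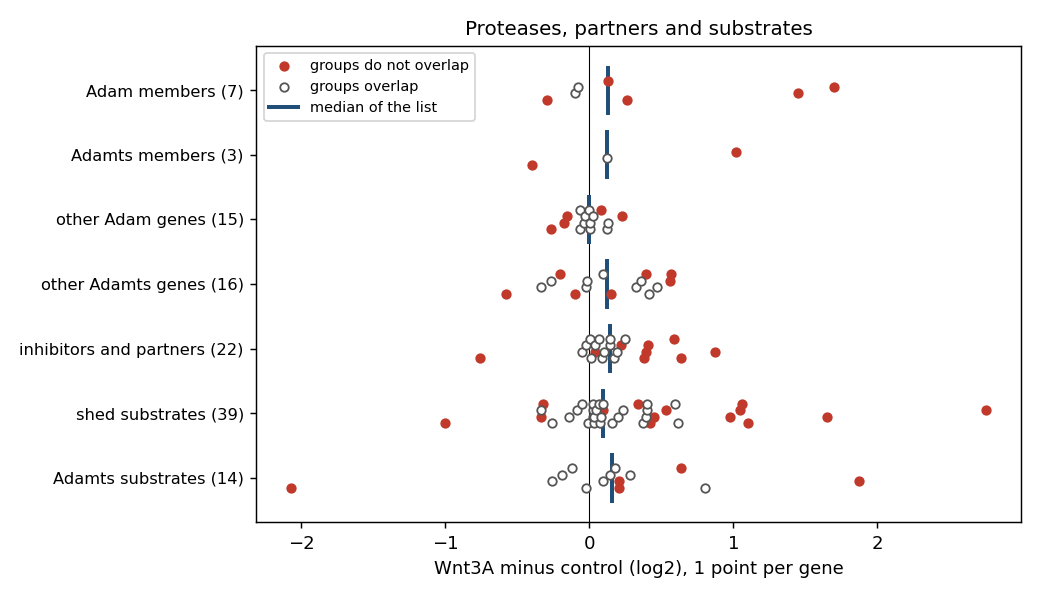
Wnt3A minus control difference in log2 units (x axis) for each measured gene of the 7 lists, with the number of genes in brackets, filled where the groups do not overlap, and a bar at the list's median. Medians lie between -0.003 (other Adam genes) and 0.16 (Adamts substrates), while single genes reach 2.75 (Procr) and -2.07 (Bgn).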

How the data were processed

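RNA of cultured colonies was hybridised to 4 single-colour Affymetrix mouse arrays. The deposited values are on a log2 scale, and RMA is named, without a version, per the submitters' processing notes. The median of each of the 45101 rows over the 4 arrays was 0, so the deposited log2 values are differences from that median; no source used here gives the centring step. After 64 array controls were left out, 45037 probe sets were tested with limma 3.58.1 in R 4.3.3 (lmFit, eBayes, two-sided, Benjamini-Hochberg adjustment over all, threshold 0.05), fitting group alone; 2 residual degrees of freedom were joined by 2.30 from the prior, and each SE printed is the moderated one. A probe set was named only where the platform annotation gave 1 symbol (34945; 932 had several and 9160 none). For related lists, each gene took the average over the probe sets of its top level band, and 1587 genes with a median below log2 4 were left out. The script was checked on simulated data. Promoter windows are from RefSeq; 11 of 11 microRNA hairpins inside minus-strand windows matched them in the gene's direction. Members and lists were chosen with earlier results of these data known. Named genes are all members, Axin2, and in each related list the 4 largest differences with separated groups. Genes of a marker list were named where a count was 5 or fewer or as ends of a range. Others were named, after their values were seen, for their values in control 1 or without Wnt3A 2. Alternatives were each array left out, a replicate block, quantile normalization, centring of each array, robust eBayes, other filters, other probe set summaries and other thresholds. The number of arrays limits the precision.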

Additional observations from a re-analysis of the deposited data

How the results depend on the processing

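Calls at an adjusted p under 0.05 in limma numbered 0 under every fit run, for probe sets and for genes, and 0 at an adjusted p under 0.1, while 2801 probe sets had an unadjusted p under 0.05. With the replicate number as a block the count was again 0, so the replicate block changed no call, and 4882 probe sets had an unadjusted p under 0.05. The precision of some members did depend on the block. The standard error of Adam19 1418402_at was 0.13 with it against 0.55 without, with a limma adjusted p of 0.37. For Adam12 1421171_at it was 0.81 against 0.82, and for Adamts4 1452595_at 0.25 against 0.23. Same-numbered arrays deviated together across probe sets (r = 0.53), and the standard deviation of the difference between 2 arrays was 0.38 within each number against 0.42 between the controls and 0.43 between the Wnt3A arrays, but nothing in the labels says what a number shares, so pairing is not established. Member probe sets with separated groups numbered 16 to 20 when an array was left out, where 66.2% to 67.8% of all probe sets were separated, against 12 and 33.7% with all arrays, and 12 after quantile normalization, after centring of each array and without the lowest level band. The number at least 1 log2 unit higher ranged from 0 (without control 1) to 5, a check added after seeing the data. Over all probe sets that share ranged from 0.77% (without control 1) to 2.10% (without Wnt3A 1). Where an array was left out, the fit assumes that the single array left varies as the other group does.

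Of 55 differences compared, 10 changed sign, each when an array was left out. A difference between groups that do not overlap cannot change sign in this way. Among the 55, only 12 member probe sets and the genes Adam10, Adam17 and Adamts1 had overlapping groups. The related genes had been picked for separated groups, so 10 of 55 does not measure how stable the differences were. Each of the 10 was at most 0.26 log2 units in size with all arrays: Adam10 1428103_at (-0.28 to 0.024), 1450104_at (-0.27 to 0.44), 1450105_at (-0.45 to 0.048) and 1460083_at (-0.22 to 0.29), Adam15 1425170_a_at (-0.077 to 0.34), Adam17 1421857_at (-0.52 to 0.0027) and 1421858_at (-0.091 to 0.047), Adamts5 1450658_at (-0.29 to 0.11), and the genes Adam10 (-0.32 to 0.12) and Adam17 (-0.18 to 0.021). The other settings changed no sign. Genes of the marker lists, Dcn aside, and related genes with overlapping groups were not among the 55. Some of these changed sign from larger differences. Without control 1 the difference of Cnn1 went from 1.22 to -0.39, and without Wnt3A 2 that of Flg went from 1.49 to -0.41.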
